A study of Mus musculus with 30 samples.

Results

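The 10 genes described here belong to the intestinal goblet cell and to mucin glycan assembly (Muc2, Muc13, Gcnt3, Tff3, Agr2, Fcgbp, Zg16, Spdef, Clca1 and Spink4), and were followed through mouse jejunum after injection of an incretin mimetic or a growth factor. The members were chosen by symbol: each was read from the array probe annotated to it with the highest mean over the 30 arrays. All 10 were among the 13201 genes tested. The tissue was mucosa scraped from a 2 cm piece of jejunum of non-fasted male C57BL/6 mice aged 11 to 12 weeks, and RNA of each sample was hybridised to an Illumina mouse beadchip. The mice had received 1 intraperitoneal dose of Ex-4 (exendin-4, an agonist of the GLP-1 receptor, at 10 nmol/kg), of human recombinant KGF/Fgf7 (keratinocyte growth factor, a ligand of an epithelial FGF receptor, at 1 mg/kg) or of PBS as vehicle. They were killed 1, 5 or 20 h later. At 1 h there were 3 Ex-4, 3 Fgf7 and 3 PBS arrays. At 5 h there were 4 Ex-4, 4 Fgf7 and 4 PBS arrays, and at 20 h there were 3 Ex-4, 3 Fgf7 and 3 PBS arrays. The labels do not say whether replicates are separate animals, and values given below for mice of a group are those of its arrays. The growth factor was a human protein given to mice, the labels name no genetic alteration, and scrapings hold every cell type of the mucosa. The 9 groups were compared to see how each gene followed agent and time.

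Goblet cells secrete the mucus that covers the intestinal epithelium. Their main product is the gel-forming mucin Muc2, which is folded in the endoplasmic reticulum, dressed with O-linked glycans in the Golgi and packed into granules together with smaller secreted proteins. Absorptive cells carry membrane-bound mucins on their apical surface, and the same glycosyltransferases decorate both kinds of mucin.

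Signals are the deposited log2 values, and differences are on that log2 scale and without subtraction of background signal, so that a fold understates the change of a dim gene. A gene passed a comparison with an adjusted p under 0.05 (limma, Benjamini-Hochberg over 13201 genes). SE stands for the standard error of a fitted difference. The Ex-4 and Fgf7 comparisons at one time share their PBS arrays. The probes used for the 10 genes lay above the dim level of 7.18 in 30 of 30 arrays. Those of Muc2, Muc13 and Zg16 were brighter on average than 99.5% to 99.8% of the genes tested. The highest value of the data was 15.15, and whether differences are compressed at such bright signals was not tested. Smooth muscle markers, which show how deep a scraping went, stood above the others in 4 arrays: PBS replicate 3 at 1 h, Ex-4 replicate 1 at 5 h, Fgf7 replicate 2 at 5 h and PBS replicate 3 at 5 h. Of 15 enterocyte markers, 12 were tested and each lay above the dim level in all 30 arrays, while Fabp1 and Fabp2 did not reach it in 3 arrays. All 9 Paneth cell markers on the array were above it in all 30 arrays. The same held for 13 of 15 enteroendocrine, 6 of 7 tuft cell and 8 of 10 leukocyte markers tested. It held for only 5 of 8 crypt stem and cycling cell, 7 of 14 smooth muscle and 3 of 10 fibroblast markers. In RNA of whole scrapings, fewer cells of a type and less RNA per cell cannot be told apart.

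Muc2 and Spdef have a promoter in the RefSeq table (GRCm38.p6), which held 5 of the 10 genes. They are shown because Muc2, the gel-forming mucin, had the smallest p of the 10 genes among the 9 groups, and Spdef encodes the ETS transcription factor that drives goblet cell maturation. Each sequence runs 5′ to 3′ from 250 bases before the annotated start site to 50 bases after it, and capitals mark matches to the motifs named after them, on either strand.
Muc2, chr7:141690090-141690389, plus strand: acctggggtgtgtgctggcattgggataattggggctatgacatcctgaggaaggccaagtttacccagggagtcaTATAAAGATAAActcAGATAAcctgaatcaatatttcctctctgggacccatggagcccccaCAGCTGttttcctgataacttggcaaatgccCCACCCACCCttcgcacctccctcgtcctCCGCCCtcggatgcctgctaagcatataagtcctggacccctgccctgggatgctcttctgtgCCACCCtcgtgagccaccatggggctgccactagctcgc
Spdef, chr17:27728902-27729201, minus strand: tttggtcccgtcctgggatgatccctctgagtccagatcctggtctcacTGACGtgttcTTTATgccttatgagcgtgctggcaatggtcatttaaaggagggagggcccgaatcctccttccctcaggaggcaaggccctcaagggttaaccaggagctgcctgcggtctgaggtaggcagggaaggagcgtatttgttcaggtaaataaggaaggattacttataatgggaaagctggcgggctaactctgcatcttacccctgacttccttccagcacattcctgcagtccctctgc
The Muc2 window had 55.3% G and C and the Spdef window 53.3%. The Muc2 window held the letters searched for as a TATA box (TATAAA), with the first base at -174 relative to the start site. This match overlaps a CDX core (TTTAT, on the reverse strand) at -173 and shares its last base with a GATA core (AGATAA) at -169. A further CDX core at -167 and a GATA core at -159 follow. An E-box of the kind bound by Atoh1 (CAGCTG) lies at -112. CACCC boxes (CCACCC) lie at -81, -77 and 12, those at -81 and -77 overlapping, and a GC box (GGGCGG, reverse strand) lies at -52. The letters tataag between this GC box and the start site were not searched for and are not marked. Whether these letters or the match at -174 act as a TATA box was not tested. The Spdef window held a cAMP response element core (TGACG) at -201 and a CDX core at -191. Of 32851 promoter windows of this length, 13.6% held the TATA box, 40.0% the CDX core, 11.2% the GATA core, 16.3% the E-box, 31.5% the CACCC box, 35.7% the GC box and 20.8% the cAMP core. The SPDEF core (CCGGAT) was in 6.04% and the ETS core (CCGGAA) in 14.9% of windows, and neither was in the Muc2 window.

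Across the 9 groups, 3 of the 10 genes differed by the moderated F-test, against 5.90% of all genes. They were Muc2 (limma adjusted p = 0.000318), the membrane mucin Muc13 (adjusted p = 0.00124) and Gcnt3 (adjusted p = 0.00146), which makes branched mucin glycans. Each of the 3 passed in 30 of 30 fits that left out 1 array. The chloride channel regulator family member Clca1, a goblet cell protease of the mucus layer, had an adjusted p of 0.0584, and the trefoil peptide Tff3 had 0.106. Spdef and the lectin Zg16 had 0.189 and 0.206. Agr2, Spink4 and Fcgbp had 0.429, 0.786 and 0.884. When only differences from time-matched PBS were asked for, Muc2 (adjusted p = 0.00416) and Gcnt3 (adjusted p = 0.0393) passed, against 1.93% of all genes. Muc2 kept this call in 30 of 30 fits without 1 array, and Gcnt3 in 10 of 30, with adjusted p up to 0.072.

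**Figure D1:**
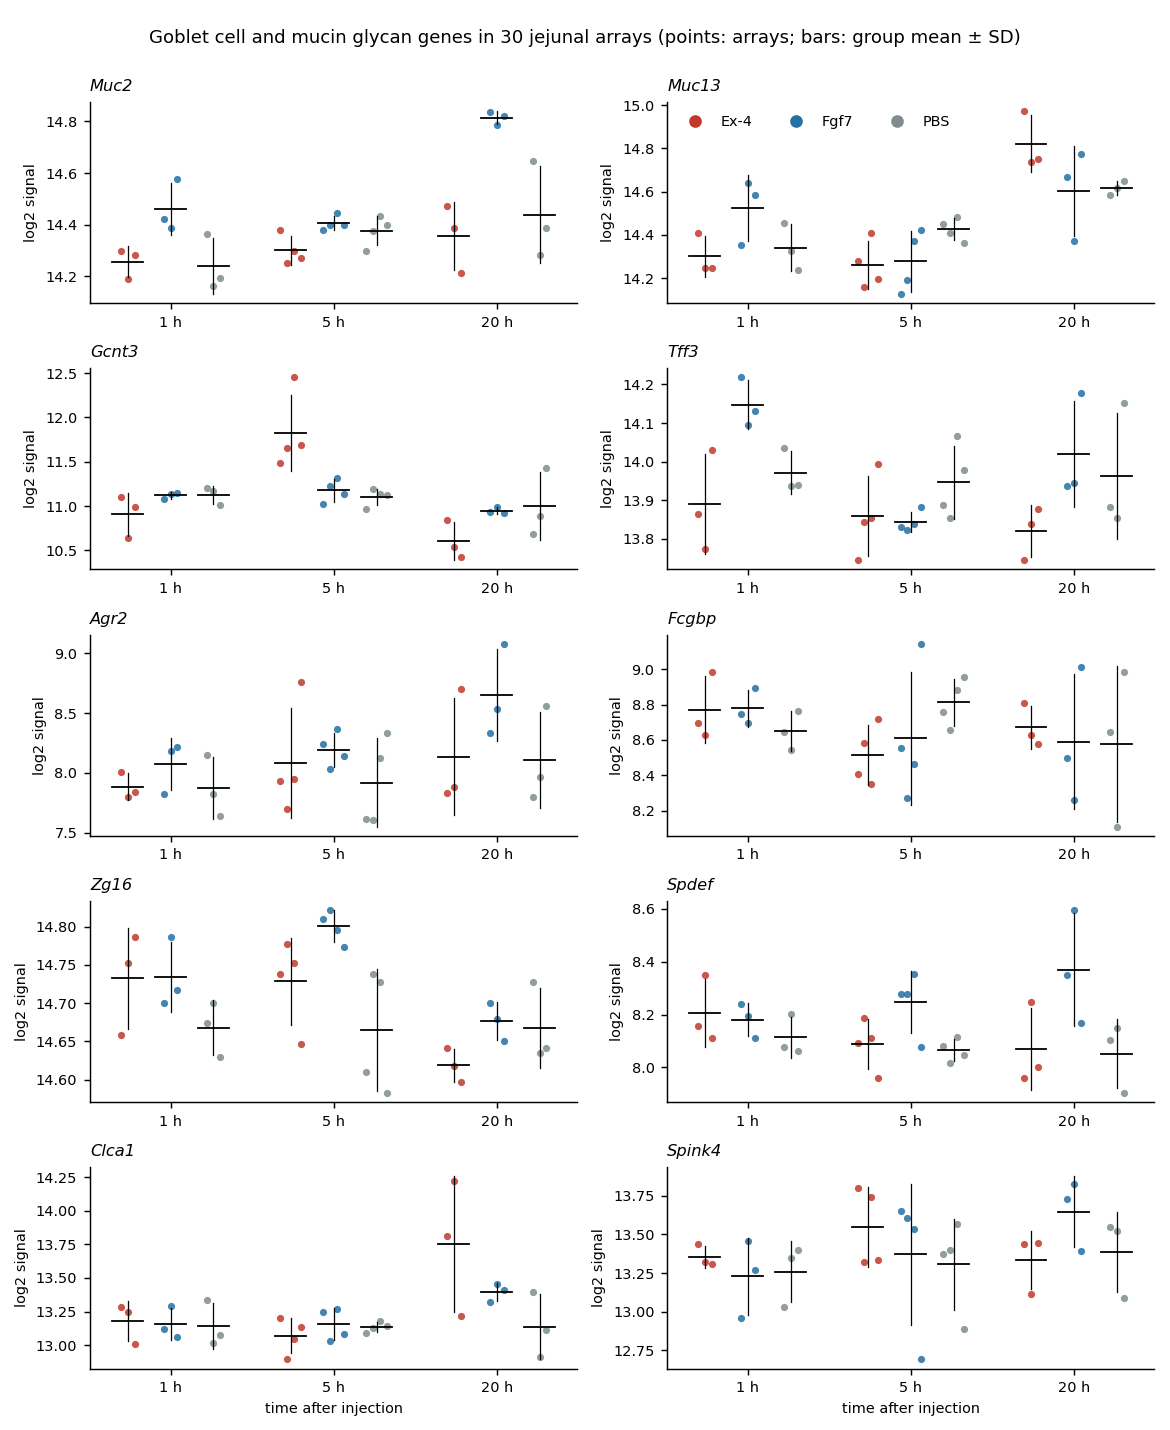
Log2 signal of the 10 genes (one panel each, vertical axes fitted to each gene and not starting at 0) by time after injection, with Ex-4, Fgf7 and PBS arrays from left to right within each time. Points are arrays and bars the group mean ± SD. Gcnt3 stands out in the 4 Ex-4 arrays at 5 h (11.49 to 12.45), and Muc2 in the 3 Fgf7 arrays at 20 h (14.79 to 14.84).

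Muc2 differed between the agents at 20 h. Its signal was 14.47, 14.39 and 14.21 in Ex-4 mice at 20 h, 14.84, 14.79 and 14.82 in Fgf7 mice and 14.65, 14.28 and 14.39 in PBS mice. The Fgf7 arrays were higher than every Ex-4 and PBS array of that time, and the Ex-4 and PBS arrays overlapped. Muc2 was 0.46 ± 0.077 (SE) lower in Ex-4 than in Fgf7 mice on the log2 scale (1.37-fold, limma adjusted p = 0.00062). It was 1 of 10 members to pass in that comparison, where 1.75% of all genes passed. The call held in 15 of 16 settings, and was lost (adjusted p = 0.0569) when only the arrays of both groups were fitted. Markers of other cells differed here too: the enterocyte enzyme Lct (-0.70, adjusted p = 0.00157) and the enteroendocrine hormone Cck (-0.61, adjusted p = 0.00333) were lower in Ex-4 than in Fgf7 mice, and the tuft cell channel Trpm5 was higher (0.38, adjusted p = 0.0288). As a mean over the 7 tuft cell markers tested, Ex-4 arrays (-0.09 to 0.14) overlapped Fgf7 arrays (-0.05 to 0.06). The means over the enterocyte and the enteroendocrine markers overlapped between these groups too. The 9 Paneth cell markers ranged from -0.12 to 0.26 in Ex-4 arrays and from -0.49 to -0.18 in Fgf7 arrays, with 8 of 9 above 0 in this comparison and 0 passing. The 10 fibroblast markers, of which 3 lay above the dim level in all 30 arrays, were all above 0, with 0 passing. Their means overlapped, from -0.36 to 0.19 in Ex-4 arrays and from -0.46 to -0.30 in Fgf7 arrays. The part of these markers in the Muc2 value was not tested.

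Against PBS, the Muc2 difference in Fgf7 mice at 20 h was 0.38 ± 0.077 on the log2 scale (1.30-fold, 95% confidence interval 0.22 to 0.53), with a limma adjusted p of 0.0755. Of all genes, 0.0455% passed there, and 0 of the 10 members. Same-numbered arrays of these 2 groups deviated together in every pair, and with the replicate number as a block Muc2 passed (adjusted p = 0.0402). PBS replicate 1 was the highest of its group, and without it the adjusted p was 0.00252. Muc2 passed in only these 2 of 16 settings. Of 6 fits without 1 array, 1 passed, and the limma adjusted p reached 0.758 in the others. Markers of other cells also differed between those groups. The mean centred log2 signal of 9 Paneth cell markers was -0.49 to -0.18 in Fgf7 arrays at 20 h and 0.04 to 0.25 in PBS arrays, with 8 of 9 markers below 0 and 0 passing. The 10 fibroblast markers ranged from -0.46 to -0.30 in Fgf7 arrays and from -0.23 to 0.03 in PBS arrays, and the 14 smooth muscle markers from -0.50 to -0.41 in Fgf7 arrays and from -0.35 to -0.07 in PBS arrays. The part of these in the Muc2 value was not tested.

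At earlier times Muc2 stayed within a narrow range. At 1 h it was 14.30, 14.19 and 14.28 in Ex-4 mice, 14.42, 14.39 and 14.58 in Fgf7 mice and 14.36, 14.16 and 14.20 in PBS mice. The Fgf7 arrays did not overlap the PBS arrays, but the difference of 0.22 ± 0.077 did not pass (limma adjusted p = 0.612). At 5 h the group means were 14.30 for Ex-4, 14.41 for Fgf7 and 14.38 for PBS, and all comparisons had adjusted p of 0.68 or more. In order of mean level, the gap between the highest group, Fgf7 at 20 h (14.81), and the next, Fgf7 at 1 h (14.46), was 0.35, above the larger SD of that pair (0.10). The lowest mean was that of PBS at 1 h (14.24). The Fgf7 difference from PBS at 20 h exceeded that at 5 h by 0.35 ± 0.10, which did not pass (adjusted p = 1). The other 2 probes of Muc2 had mean signals of 7.13 and 7.11, near the dim level, and gave no reading.

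Clca1 was higher after Ex-4 at 20 h. Its signal was 13.81, 14.22 and 13.22 in Ex-4 mice, 13.32, 13.46 and 13.41 in Fgf7 mice and 13.40, 12.91 and 13.11 in PBS mice. Ex-4 replicates 1 and 2 were above every other array of the study, whereas replicate 3 lay within the PBS range. Clca1 exceeded PBS by 0.61 ± 0.15 on the log2 scale (1.53-fold, 95% confidence interval 0.29 to 0.93, limma adjusted p = 0.0299). It was the 1 member of 10 to pass, against 2.29% of all genes. The call was lost without Ex-4 replicate 1 (adjusted p = 0.139), Ex-4 replicate 2 (0.211, with a difference of 0.38), PBS replicate 2 (0.217) or PBS replicate 3 (0.105). It was also lost when the 4 arrays rich in smooth muscle markers, all from earlier times, were left out (0.0514) and when the Ex-4 and PBS arrays at 20 h were fitted alone (0.414). A second Clca1 probe gave 0.52, with an adjusted p of 0.051 over all probes, against 0.041 for the probe used here in that fit. The difference from Fgf7 mice, 0.35 ± 0.15, did not pass (adjusted p = 0.422), and without Ex-4 replicate 3 it was 0.62 (adjusted p = 0.00829).

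At 1 and 5 h Clca1 lay between 12.90 and 13.34 in the Ex-4, Fgf7 and PBS arrays alike, with differences from PBS of -0.07 to 0.04. The Ex-4 difference from PBS was 0.68 ± 0.20 larger at 20 h than at 5 h, which did not pass (adjusted p = 0.128). Marker signals differed between the Ex-4 and PBS arrays at 20 h. The 12 enterocyte markers ranged from -0.25 to -0.08 in Ex-4 arrays and from -0.09 to 0.15 in PBS arrays, with 8 of 12 below 0, and the brush border enzyme Lct passed (-0.63, adjusted p = 0.0041). The tuft cell channel Trpm5 was higher in Ex-4 mice (0.44, adjusted p = 0.00746). As a mean over the 7 tuft cell markers tested, Ex-4 arrays (-0.09 to 0.14) overlapped PBS arrays (-0.16 to 0.05). The 10 leukocyte markers were all below 0 in this comparison, and ranged from -0.62 to 0.00 in Ex-4 arrays and from -0.20 to 0.14 in PBS arrays. The part of these in the Clca1 value was not tested.

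Tff3, which protects and repairs the mucosa and is packed with Muc2, passed in none of the comparisons. At 1 h it was 13.86, 13.77 and 14.03 in Ex-4 mice, 14.22, 14.09 and 14.13 in Fgf7 mice and 14.04, 13.94 and 13.94 in PBS mice. The Fgf7 arrays were above all Ex-4 and all PBS arrays of that time. The Fgf7 difference from PBS was 0.18 ± 0.082 (limma adjusted p = 0.635), and the difference of Ex-4 from Fgf7 was -0.26 ± 0.082 (adjusted p = 0.721). At 20 h Ex-4 was again below Fgf7 without overlap (13.74, 13.84 and 13.88 against 13.94, 13.95 and 14.18), with a difference of -0.20 ± 0.082 (adjusted p = 0.363). At 5 h the 3 group means ranged from 13.84 to 13.95. Muc2 and Tff3 were the 2 members with no overlap between Fgf7 and PBS at 1 h, where 14.9% of all genes had none, 0.00758% of all genes passed and 0 of the 10 members did.

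Zg16, a lectin of the mucus that binds Gram-positive bacteria, moved in a small range, from a mean of 14.62 in Ex-4 mice at 20 h to 14.80 in Fgf7 mice at 5 h. Zg16 thus lay near the highest value of the data, 15.15. At 5 h it was 14.74, 14.78, 14.75 and 14.65 in Ex-4 mice, 14.81, 14.82, 14.80 and 14.77 in Fgf7 mice and 14.61, 14.74, 14.73 and 14.58 in PBS mice. The Fgf7 arrays were above all PBS arrays, while Ex-4 and PBS overlapped. The Fgf7 difference from PBS was 0.14 ± 0.045 (1.10-fold) and did not pass (limma adjusted p = 0.363). It was the 1 member without overlap there, where 3.23% of all genes had none and 0.212% passed, none of them a member.

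Fcgbp, a mucus protein that is linked to Muc2, spread widely within groups (8.11 to 9.14 over all arrays). Its group means ranged from 8.52 in Ex-4 mice at 5 h to 8.81 in PBS mice at 5 h, a range of 0.30 against a pooled within-group SD of 0.26. The largest of its differences from PBS, -0.30 ± 0.17 for Ex-4 at 5 h, did not pass (limma adjusted p = 0.539). Spink4, a Kazal-type protease inhibitor of goblet granules, had means from 13.23 (Fgf7 at 1 h) to 13.65 (Fgf7 at 20 h). Its Fgf7 difference from PBS at 20 h was 0.26 ± 0.21 (adjusted p = 0.999). In Fgf7 mice at 5 h it was 13.65, 13.61, 13.54 and 12.69, so that replicate 4 lay far below the other 3 and below every other array of the study.

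Muc13, the membrane mucin of the enterocyte surface, had its 3 highest group means at 20 h. In PBS mice it was 14.46, 14.33 and 14.24 at 1 h, 14.45, 14.41, 14.48 and 14.36 at 5 h and 14.58, 14.62 and 14.65 at 20 h. All PBS arrays at 20 h were above all PBS arrays at 1 and 5 h. The difference was 0.28 ± 0.098 between 20 h and 1 h and 0.19 ± 0.092 between 20 h and 5 h, and neither passed (limma adjusted p = 1 for both). A second Muc13 probe, above the dim level in 30 arrays, gave 0.05 ± 0.11 between 20 h and 1 h. Between 20 h and 5 h it gave 0.15 ± 0.099. That probe thus showed little of the rise from 1 h. In the 3 PBS comparisons 0% of genes and none of the members passed. By an unadjusted p under 0.05, between 20 h and 5 h 4.35% of all genes and 1 member differed, between 20 h and 1 h 4.27% and 2 members, and between 5 h and 1 h 5.48% and none of the members. Muc13 was the 1 member without overlap between PBS at 20 h and 1 h, against 8.95% of all genes, and between 20 h and 5 h, against 4.39%. Between 5 h and 1 h 5.83% of all genes and none of the members had no overlap.

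In Ex-4 mice at 20 h Muc13 was 14.97, 14.74 and 14.75, against 14.67, 14.37 and 14.77 in Fgf7 mice and 14.58, 14.62 and 14.65 in PBS mice. The Ex-4 arrays were above all PBS arrays of that time and overlapped the Fgf7 arrays. The Ex-4 difference from PBS, 0.20 ± 0.098 (1.15-fold), did not pass (limma adjusted p = 0.4). Muc13 was the 1 member without overlap there, and 15.1% of all genes had none. At 5 h both agents lay below PBS, with means of 14.26 for Ex-4, 14.28 for Fgf7 and 14.43 for PBS, and neither difference passed (adjusted p = 0.474 and 0.823). The Ex-4 difference from PBS was 0.37 ± 0.13 higher at 20 h than at 5 h (adjusted p = 0.218). The second Muc13 probe gave 0.18 for Ex-4 against PBS at 20 h.

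Gcnt3, the glucosaminyltransferase that makes core 2 and core 4 branches of mucin glycans, had the widest range of group means of the 10 genes, at 1.22 on the log2 scale. At 5 h its signal was 11.49, 11.65, 12.45 and 11.69 in Ex-4 mice, 11.02, 11.23, 11.32 and 11.13 in Fgf7 mice and 10.97, 11.19, 11.13 and 11.12 in PBS mice. Every Ex-4 array was above every Fgf7 and PBS array, and Ex-4 replicate 3 was the highest of all 30. The difference from PBS was 0.72 ± 0.15 (95% confidence interval 0.40 to 1.03, limma adjusted p = 0.0172). Gcnt3 was the 1 member of 10 to pass, against 0.901% of all genes, and the 1 without overlap, against 5.89% of all genes. Without PBS replicate 1 the adjusted p was 0.0709, and without Ex-4 replicate 3 it was 0.0925, with a difference of 0.51. With the Ex-4 and PBS arrays at 5 h fitted alone it was 0.192. Ex-4 arrays at 5 h also had higher Paneth cell marker signals (0.10 to 0.39, against -0.27 to 0.08 in PBS arrays, 8 of 9 markers above 0), and the part of these in the Gcnt3 value was not tested.

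The Gcnt3 difference between Ex-4 and Fgf7 mice at 5 h, 0.64 ± 0.15 (1.56-fold), missed the threshold (limma adjusted p = 0.0505), in a comparison where 0.545% of all genes passed and 0 of the 10 members did. Gcnt3 was the 1 member without overlap there, against 5.06% of all genes. At 20 h Gcnt3 was 10.84, 10.54 and 10.43 in Ex-4 mice, 10.94, 10.99 and 10.92 in Fgf7 mice and 10.69, 10.89 and 11.43 in PBS mice. The Ex-4 arrays were below all Fgf7 arrays and overlapped the PBS arrays. The difference from PBS was -0.40 ± 0.18 (adjusted p = 0.341) and that from Fgf7 was -0.35 ± 0.18 (adjusted p = 0.558). The Ex-4 difference from PBS fell by 1.12 ± 0.23 on the log2 scale at 20 h relative to 5 h (adjusted p = 0.0151), the 1 member to pass, against 0.947% of all genes. PBS replicate 3 at 20 h was the highest of its group, and without it the change was -0.90 and did not pass (adjusted p = 0.0682), nor did it with the 4 groups fitted alone (0.146). The Ex-4 difference was 0.93 ± 0.23 higher at 5 h than at 1 h, which did not pass (adjusted p = 0.158), and at 1 h the arrays were 11.10, 10.64 and 10.99 in Ex-4 mice and 11.20, 11.17 and 11.01 in PBS mice.

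Agr2, the disulphide isomerase needed to fold Muc2, passed in none of the comparisons. At 20 h it was 7.83, 7.88 and 8.70 in Ex-4 mice, 8.34, 8.54 and 9.08 in Fgf7 mice and 7.80, 7.96 and 8.56 in PBS mice. The groups overlapped, although the Fgf7 mean (8.65) was the highest of the 9. The Fgf7 difference from PBS was 0.55 ± 0.26 (1.46-fold, 95% confidence interval 0.02 to 1.07) and did not pass (limma adjusted p = 0.999). The gap of 0.46 to the next group mean was larger than the larger SD of that pair, 0.38. Differences of Agr2 from PBS at the other times were 0.01 to 0.27.

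Spdef had its highest mean in Fgf7 mice at 20 h as well. Its signal was 7.96, 8.25 and 8.0 in Ex-4 mice, 8.35, 8.60 and 8.17 in Fgf7 mice and 8.10, 8.15 and 7.90 in PBS mice. The Fgf7 arrays were above all PBS arrays, the lowest by little, and overlapped the Ex-4 arrays. The Fgf7 difference from PBS was 0.32 ± 0.095 (1.25-fold, 95% confidence interval 0.12 to 0.52), with an unadjusted p of 0.00254 and a limma adjusted p of 0.985. The difference between Ex-4 and Fgf7 was -0.30 ± 0.095 (adjusted p = 0.139). At 5 h it was 8.28, 8.28, 8.35 and 8.08 in Fgf7 mice and 8.08, 8.02, 8.12 and 8.05 in PBS mice, and the difference of 0.18 ± 0.083 did not pass (adjusted p = 0.679). Muc2 and Spdef were the 2 members without overlap between Fgf7 and PBS at 20 h, where 9.35% of all genes had none. The Paneth, fibroblast and smooth muscle markers that differed there, given with Muc2, apply to Spdef, Agr2 and the other genes of that comparison too, and their part was not tested.

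**Figure D2:**
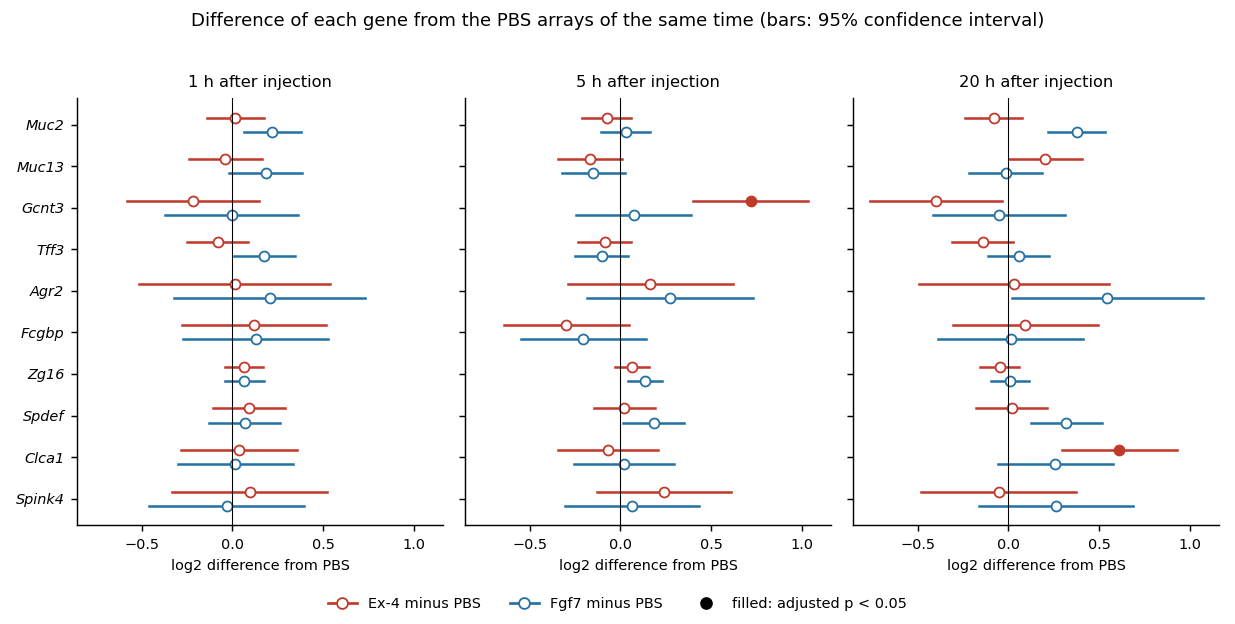
Log2 difference from time-matched PBS of the 10 genes at 1, 5 and 20 h (panels from left to right), for Ex-4 above Fgf7 in each row. Bars are 95% confidence intervals and filled points have an adjusted p under 0.05: Gcnt3 at 5 h (0.72) and Clca1 at 20 h (0.61), both for Ex-4.

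Differences from PBS had both signs among the 10 genes. Of the 10 differences from PBS in Fgf7 mice at 20 h, 8 were above 0 with a median of 0.16, beside a median of 0.01 over all genes tested. Of all genes, 54.2% were above 0 there. In Ex-4 mice at 20 h, 5 members were above 0 and 5 below, with a median of -0.02 beside 0.01, and 53.8% of all genes were above 0. At 5 h the median of the members was -0.02 for Ex-4 and 0.05 for Fgf7, both beside 0.00, and at 1 h it was 0.03 for Ex-4 and 0.10 for Fgf7, both beside 0.00. Set directly against Fgf7 at 20 h, 7 of the 10 genes were lower in Ex-4 mice, with a median of -0.25 beside 0.00 over all genes. Of all genes, 51.8% were higher in Ex-4 mice in this comparison. Arrays did not overlap there for 4 members (Muc2, Gcnt3, Tff3 and Zg16, all lower in Ex-4), against 13.6% of all genes. At an unadjusted p under 0.05 (limma) there were 5 members, against 9.70% of all genes: Muc2, Tff3 and Spdef were lower in Ex-4 mice, and Muc13 (0.22) and Clca1 (0.35) were higher.

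Where no member passed, the members were also counted at an unadjusted p under 0.05 (limma). For Fgf7 against PBS there were 2 at 1 h (Muc2 and Tff3), against 7.58% of all genes, 2 at 5 h (Zg16 and Spdef), against 6.84%, and 3 at 20 h (Muc2, Agr2 and Spdef), against 4.01%. For Ex-4 against Fgf7 there were 3 at 1 h (Muc2, Muc13 and Tff3), against 5.75%, and 1 at 5 h (Gcnt3), against 9.69%. At 1 h 0% of all genes and none of the members passed for Ex-4 against PBS, with 2.95% of all genes and none of the members at an unadjusted p under 0.05, and arrays did not overlap for 9.98% of all genes and none of the members. In the same hour, 0.00758% of all genes and none of the members passed for Ex-4 against Fgf7, and 13.3% of all genes and 2 of the members had no overlap. The Ex-4 difference changed between 1 h and 5 h for 0.129% and between 1 h and 20 h for 0.508% of all genes, none of them members. At an unadjusted p under 0.05 they numbered 1 member each (Gcnt3 and Clca1), against 7.10% and 6.86% of all genes. The Fgf7 difference changed between 1 h and 20 h for 0.0227% of all genes and in the other 2 pairs of times for 0%, none of them members. At an unadjusted p under 0.05 there were 2 members between 1 h and 5 h (Muc13 and Tff3), against 7.25% of all genes, none between 1 h and 20 h, against 4.06%, and 1 between 5 h and 20 h (Muc2), against 3.69%.

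Within groups, 4 of 45 pairs of genes passed by both r and rho when arrays were permuted one by one, and none when same-numbered arrays were kept together. Each array was expressed as its deviation from its group mean, with p-values from 100000 permutations within groups (Benjamini-Hochberg over 45 pairs). Since 22 of 30 same-numbered pairs of arrays deviate together (r over 0.1), these p-values may be too small, and all 864 arrangements that keep the same-numbered arrays of a time together were also run, a choice made after seeing the data. The smallest permutation p these arrangements can give is 0.00116 before adjustment. At that p 1 pair on its own could not pass, so this check cannot settle the 4 pairs. The 30 arrays share their normalisation. Tff3 had r = 0.67 with Agr2 (rho = 0.64) and r = 0.65 with Fcgbp (rho = 0.62), both with an adjusted permutation p of 0.024 for r. Fcgbp had r = -0.73 with Spdef (rho = -0.65, adjusted permutation p = 0.0238 for r) and r = -0.67 with Spink4 (rho = -0.61, adjusted permutation p = 0.024 for r). The adjusted permutation p for rho was 0.0384 for the first 3 and 0.0389 for Fcgbp with Spink4. With same-numbered arrays together, the adjusted permutation p for r was 0.188 for the first 3 and 0.216 for Fcgbp with Spink4, and that for rho was 0.26 for all 4. Without the 2 arrays farthest from the median of the first gene, these 4 values of r were 0.58, 0.51, -0.64 and -0.52. Over all 45 pairs r ranged from -0.73 to 0.67 with a median of 0.03, and 25 were above 0.

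**Figure D3:**
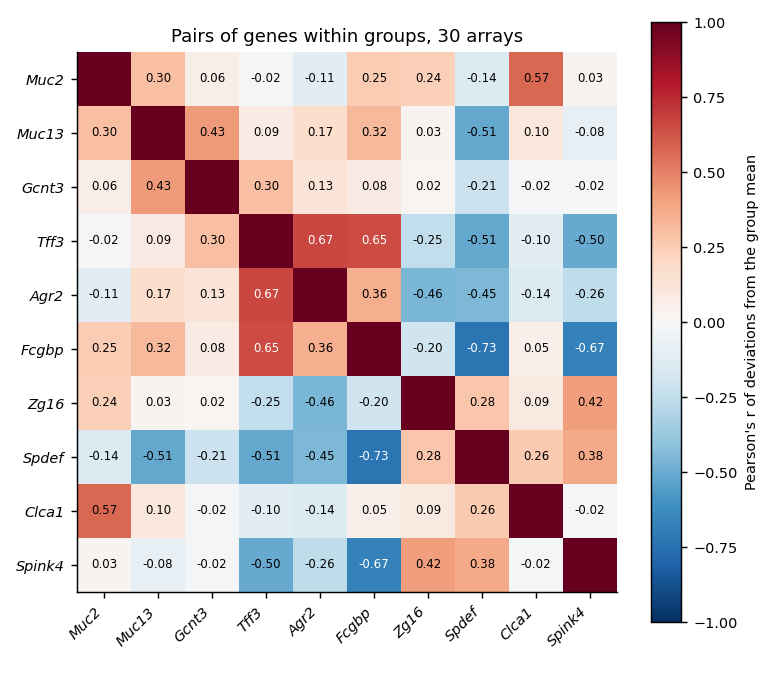
Pearson's r of the deviations from the group mean for each pair of the 10 genes over 30 arrays, from -1 (blue) to 1 (red), with the value printed in each cell. Tff3, Agr2 and Fcgbp form a red patch (0.36 to 0.67), and Fcgbp is blue against Spdef (-0.73) and Spink4 (-0.67).

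The same deviations were set against markers of the other cells of the mucosa, over 80 pairs of gene and marker list. Ang4 and Itln1 were listed both as Paneth cell markers and among the other goblet products described below. By both r and rho, 6 pairs passed when arrays were permuted one by one and none with same-numbered arrays together, where the smallest p the 864 arrangements can give is 0.00116 before adjustment. Over 80 pairs, too, 1 pair on its own could not pass at that p. With numbers together, Tff3 with crypt stem and cycling cell markers (r = -0.52) and Spink4 with smooth muscle markers (r = 0.51) passed by r only. Both had an adjusted permutation p of 0.0463 for r, and for rho it was 0.116 and 0.0926. Spink4 had r = 0.87 with the markers of crypt stem and cycling cells (rho = 0.74, adjusted permutation p = 0.0024 for r, 0.0694 with numbers together). With Paneth cell markers it had r = 0.79 (rho = 0.70, adjusted permutation p = 0.00672, 0.081 with numbers together). With enterocyte markers it had r = -0.80 (rho = -0.70, adjusted permutation p = 0.00672, 0.081 with numbers together). Without the 2 arrays farthest from the median, these values of r were 0.80, 0.68 and -0.73. Fcgbp had the opposite signs, with r = 0.80 for enterocyte markers (rho = 0.76, adjusted permutation p = 0.0036, 0.081 with numbers together) and r = -0.68 for crypt markers (rho = -0.66, adjusted permutation p = 0.00672, 0.144 with numbers together). Without 2 arrays they were 0.75 and -0.59. Tff3 had r = 0.66 with enterocyte markers (rho = 0.67, adjusted permutation p = 0.00813, 0.0694 with numbers together, r = 0.66 without 2 arrays). The array with the lowest Spink4, Fgf7 replicate 4 at 5 h, had the highest Fcgbp of all 30 arrays (9.14). How many cells of each kind a scraping held was not tested.

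**Figure D4:**
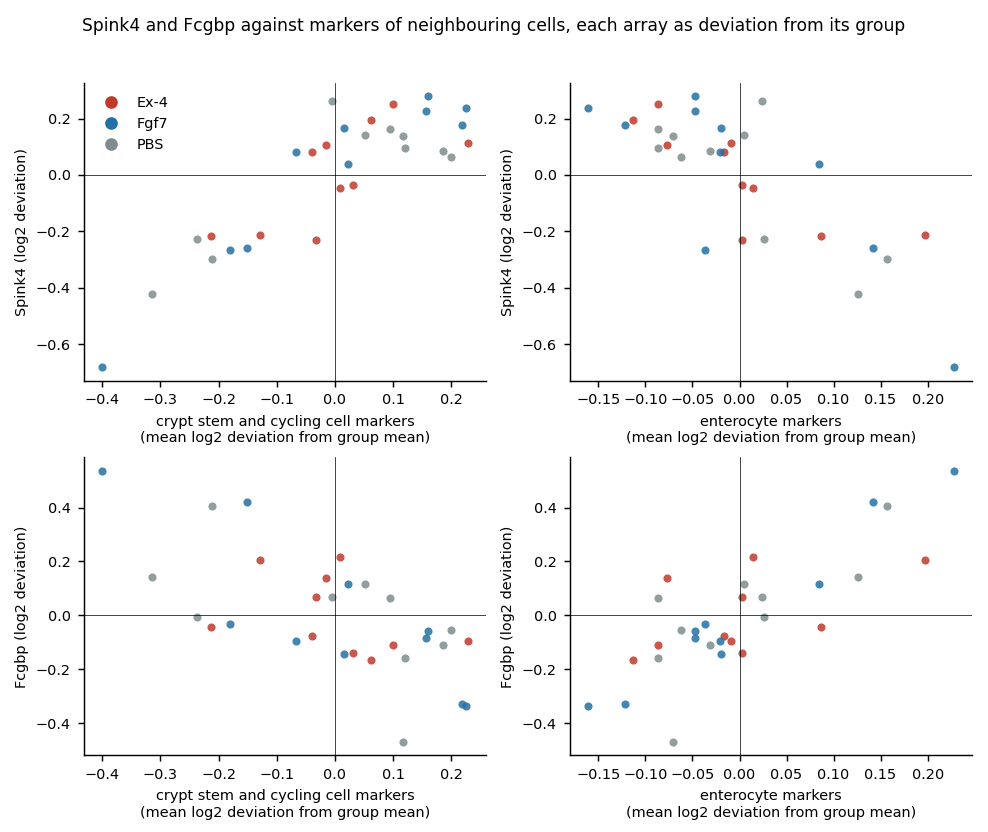
Deviation from the group mean of Spink4 (top) and Fcgbp (bottom) against the mean log2 deviation of crypt markers (left) and enterocyte markers (right), 1 point per array. Spink4 has r = 0.87 with crypt markers and Fcgbp r = 0.80 with enterocyte markers, and the array at the far end of each panel is Fgf7 replicate 4 at 5 h.

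Other genes of the pathway were taken from lists of goblet products, glycosylation enzymes, folding factors, regulators and ion transporters, chosen with earlier results of these data known. Of 20 other goblet products tested, 1 rose after Fgf7 at 5 h and the same gene at 20 h, with medians over the list of 0.02 and 0.06 beside 0.00 and 0.01 over all genes. Of all genes, 0.212% passed after Fgf7 at 5 h and 0.0455% at 20 h. That gene was Bcas1, known as a marker of myelinating oligodendrocytes and listed here among goblet genes. At 5 h it was 11.30, 11.06, 11.38 and 11.29 in Fgf7 mice, against 10.61, 10.92, 10.80 and 10.91 in PBS mice. At 20 h it was 10.60, 10.63 and 10.62 in Ex-4 mice, 11.27, 11.28 and 11.21 in Fgf7 mice and 10.85, 10.72 and 10.70 in PBS mice. The Fgf7 arrays were above all others of their time on both occasions, Ex-4 arrays at 5 h (10.82 to 10.91) included. Bcas1 exceeded PBS in Fgf7 mice by 0.45 ± 0.075 at 5 h (1.36-fold, limma adjusted p = 0.00462) and by 0.50 ± 0.087 at 20 h (1.41-fold, adjusted p = 0.0139). The 5 h call held in 8 of 8 fits without 1 array, whereas the 20 h call was lost without Fgf7 replicate 1, Fgf7 replicate 2, PBS replicate 2 or PBS replicate 3 (adjusted p up to 0.133). It was 0.64 ± 0.087 lower in Ex-4 than in Fgf7 mice at 20 h (1.55-fold, adjusted p = 4.88e-05), a call that held in 16 of 16 settings. Of the calls against PBS described for this and the following lists, none held when only the arrays of both groups were fitted (adjusted p of 0.0559 to 0.243).

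Among the same products the phospholipase Pla2g10 fell after Fgf7 at 5 h, to 8.41, 8.04, 7.99 and 8.14 in Fgf7 mice, against 8.53, 8.63, 8.58 and 8.53 in PBS mice. The groups did not overlap, and the difference was -0.42 ± 0.086 (limma adjusted p = 0.0235). It passed in 2 of 8 fits without 1 array (adjusted p up to 0.168). At an unadjusted p under 0.05 (limma), 7 of the 20 products differed after Fgf7 at 5 h, against 6.84% of all genes, and over the 3 times 10 of 60 tests did, against 6.14% of the tests of all genes. For Ex-4, none of the 20 passed at 1, 5 or 20 h, and 3 of 60 tests had an unadjusted p under 0.05, against 8.8% over all genes. The smallest p at 20 h were those of Guca2a, which encodes guanylin (0.35, adjusted p = 0.233), and of Lypd8, which keeps flagellated bacteria from the epithelium (0.56, adjusted p = 0.262). Of 4 membrane mucins tested besides Muc13, none passed in any comparison with PBS, 0 of 24 tests had an unadjusted p under 0.05 (limma), and Muc4 had 0.16 (adjusted p = 0.475) for Ex-4 at 20 h.

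None of 7 enzymes of O-glycan initiation passed in any comparison with PBS, and 3 of 42 tests had an unadjusted p under 0.05. Galnt11 had -0.22 (limma adjusted p = 0.174) for Ex-4 at 5 h and Galnt2 0.14 (adjusted p = 0.475) for Ex-4 at 20 h. Of 14 other core and branching enzymes, 1 fell after Ex-4 at 20 h, against 2.29% of all genes in either direction. This was Gcnt2, which makes the branches of I antigen, with 10.52, 10.49 and 10.53 in Ex-4 mice and 10.82, 11.05 and 11.00 in PBS mice. The arrays did not overlap, and the difference was -0.45 ± 0.094 (1.36-fold, adjusted p = 0.0068). Without PBS replicate 2 the adjusted p was 0.0587. A second Gcnt2 probe, with a mean signal of 7.5, gave -0.05 and thus showed little of the fall. That signal is not far above the dim level, where differences are understated, so whether the probes disagree cannot be told.

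Of 30 capping and sulphation genes, 1 rose and 1 fell after Ex-4 at 20 h, with a list median of 0.00, where 2.29% of all genes passed. Gmds, which acts on the route from GDP-mannose to GDP-fucose, was 12.20, 11.55 and 11.86 in Ex-4 mice, against 11.11, 10.94 and 10.96 in PBS mice. It rose by 0.87 ± 0.16 (1.82-fold, limma adjusted p = 0.0016) without overlap, and passed in 6 of 6 fits without 1 array. It also exceeded Fgf7 mice by 0.63 (adjusted p = 0.0288), a call kept in 2 of 6 fits without 1 array (adjusted p up to 0.262). Fut4, a fucosyltransferase that uses GDP-fucose, fell to 9.33, 9.54 and 9.95 in Ex-4 mice, against 9.99, 10.34 and 10.27 in PBS mice. The difference was -0.59 ± 0.14 (1.51-fold, adjusted p = 0.0226), and it was lost without Ex-4 replicate 1, Ex-4 replicate 2, PBS replicate 2 or PBS replicate 3 (adjusted p up to 0.224). No gene of this list passed for Fgf7 (7 of 90 tests at an unadjusted p under 0.05), where Fut4 had -0.43 (adjusted p = 0.999) at 20 h.

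Of 20 other genes of secretory folding, 1 fell after Fgf7 at 5 h, where 0.212% of all genes passed. Creb3l4, a membrane-bound transcription factor of the secretory pathway, was 8.36, 8.27, 8.29 and 8.50 in Ex-4 mice, 7.92, 7.83, 8.06 and 7.81 in Fgf7 mice and 8.49, 8.16, 8.22 and 8.45 in PBS mice. The Fgf7 arrays were below all others of that time. The difference from PBS was -0.42 ± 0.080 (limma adjusted p = 0.0174), which was lost without Fgf7 replicate 2, PBS replicate 1 or PBS replicate 4 (adjusted p up to 0.126). With the 4 arrays rich in smooth muscle markers left out, its adjusted p was 0.146, and that of Pla2g10 was 0.389. Ern2, the endoplasmic reticulum stress sensor of mucous cells, had 0.33 (adjusted p = 0.467) for Fgf7 at 1 h, where 5 of the 20 genes had an unadjusted p under 0.05, against 7.58% of all genes.

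Of 19 other regulators of the secretory lineage, 1 rose after Ex-4 at 5 h, where 0.901% of all genes passed. Elf3, an epithelial ETS factor, was 10.86, 10.92, 11.43 and 11.08 in Ex-4 mice, 10.22, 10.45, 10.41 and 10.72 in Fgf7 mice and 10.50, 10.68, 10.70 and 10.34 in PBS mice. The Ex-4 arrays were above all others of that time, and replicate 3, the highest for Gcnt3, was the highest here too. The difference from PBS was 0.52 ± 0.12 (1.43-fold, limma adjusted p = 0.0425), a call kept in 7 of 18 settings and in 2 of 8 fits without 1 array (adjusted p up to 0.232). The forkhead factor Foxa3 had 0.39 (adjusted p = 0.524) for Fgf7 at 1 h. At an unadjusted p under 0.05, 4 of the 19 regulators differed for Ex-4 at 1 h, against 2.95% of all genes. None of 11 genes of ion transport for mucus release passed against PBS, and 6 of 66 tests had an unadjusted p under 0.05. The sodium-proton exchanger Slc9a3 had 0.63 (adjusted p = 0.0638) for Ex-4 at 20 h and the chloride channel Cftr 0.24 (adjusted p = 0.396) for Ex-4 at 5 h. Against Fgf7 at 20 h Slc9a3 was 0.79 higher in Ex-4 mice (limma adjusted p = 0.013), kept in 2 of 6 fits without 1 array. Other list genes also passed between Ex-4 and Fgf7. At 5 h these were Elf3 (0.62, 15 of 18 settings), Creb3l4 (0.45, 16 of 18) and Bcas1 (-0.40, 17 of 18). At 20 h Sytl2 (-0.47, 11 of 16) passed besides Bcas1 and Gmds, given above. Of all genes, 0.545% passed there at 5 h and 1.75% at 20 h. Over both agents and the 3 times, 7.47% of the tests of all genes had an unadjusted p under 0.05. The shares were 10.8% for goblet products, 0% for membrane mucins, 7.14% for initiation, 10.7% for core and branching, 8.33% for capping and sulphation, 14.2% for folding, 12.3% for regulators and 9.09% for ion transport. Genes of a list share arrays, and these shares were not tested.

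**Figure D5:**
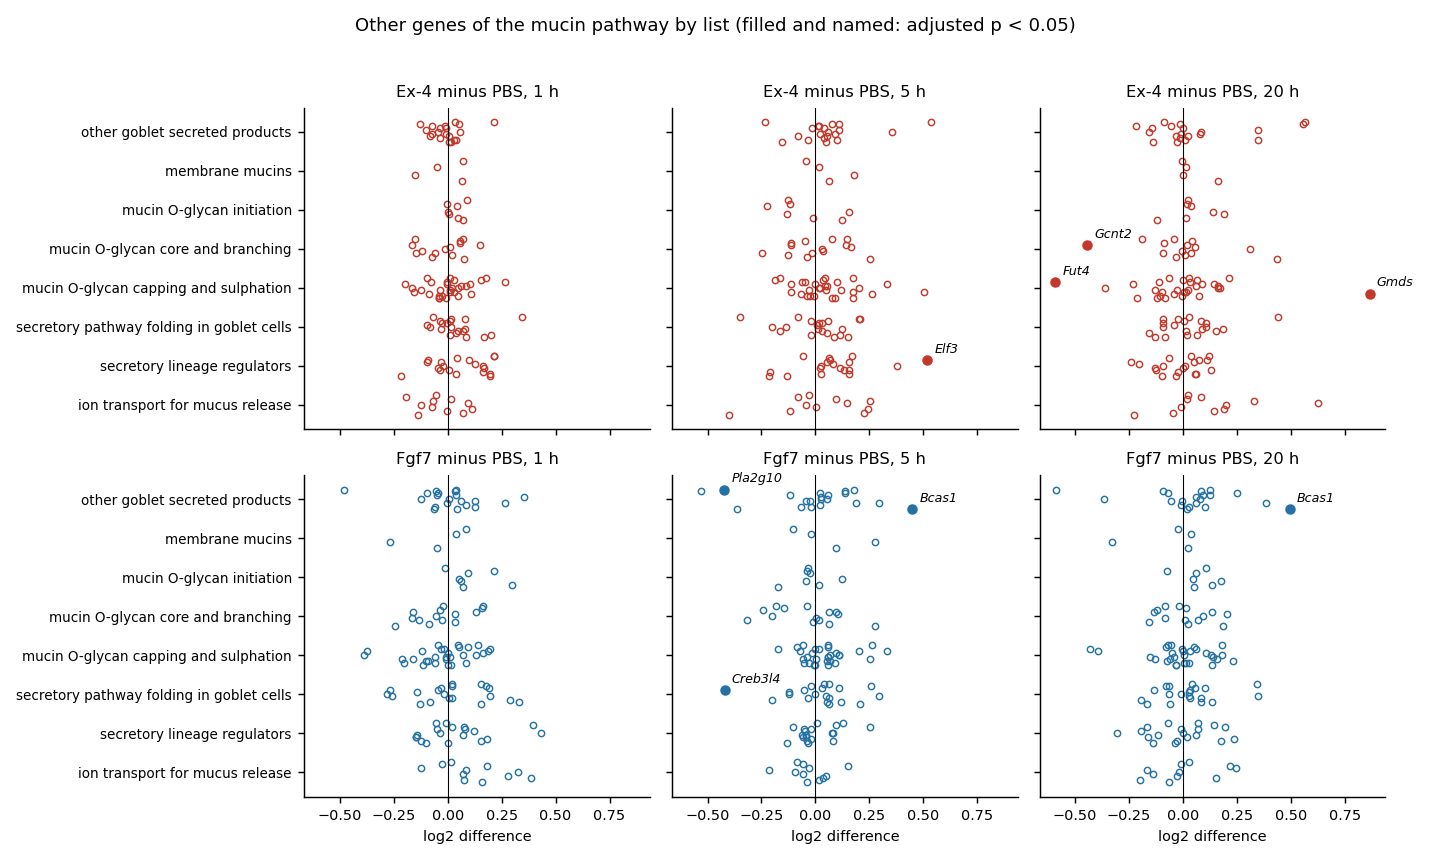
Log2 difference from time-matched PBS of other genes of the mucin pathway, 1 point per gene and 1 row per list, for Ex-4 (top) and Fgf7 (bottom) at 1, 5 and 20 h. Filled, named points have an adjusted p under 0.05: Elf3 at 5 h and Gcnt2, Fut4 and Gmds at 20 h for Ex-4, and Pla2g10, Creb3l4 and Bcas1 at 5 h and Bcas1 at 20 h for Fgf7.

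The genes whose signal was most like that of a member were named by Pearson's r over the 30 arrays, as a description, since all values share the arrays and their normalisation. Gcnt3 was most like the lipid transporter Mfsd2a (r = 0.83) and the cytokine signalling inhibitor Socs3 (r = 0.82). Muc2 was most like the potassium channel gene Kcnk6 (r = 0.74). Tff3 was most like Sec16b, which organises exit from the endoplasmic reticulum (r = 0.75), and Spdef most like Id4 (r = 0.63). The mean signal of Id4, 7.23, was near the dim level of 7.18, so this likeness says little. Anxa3, the next for Spdef (r = 0.62), had a mean signal of 8.78. Over the 9 group means, Gcnt3 was most like D130043K22Rik (r = 0.97), which was also among its 3 nearest over the arrays (r = 0.82).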

How the data were processed

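Total RNA of 30 jejunal scrapings was extracted with Trizol, labelled with an Illumina TotalPrep-96 kit using 1500 ng of cRNA and hybridised to beadchips, per the labels' protocols. The values used are log2 signals deposited by the authors, 1 per probe and array; how they were normalised was not given in the sources, and they look quantile-normalised, with a largest SD over arrays of 0.00218 at a given rank and array medians of 7.14. Another deposited table has 60 columns headed by numbers that match no sample label, and was not used. The number of arrays limits the precision.

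Of 45281 probes, 34885 had 1 gene symbol, 18 several and 10378 none. Of these, 34807 matched RefSeq genes (GRCm38.p6) by gene ID, used for names and promoters. The 26637 probes above 7.18 (the dim level, which a share of 0.01 of a normal background of mode 7.01 and SD 0.071, read from the low side of the signal, would exceed) in at least 3 arrays were kept. Taking the brightest probe on average for each gene gave 13201 genes. A mean per group was fitted with limma 3.58.1 (R 4.3.3; residual degrees of freedom 21, prior 4.60, and a median SD of the residuals of 0.107), tested on simulated data, with Benjamini-Hochberg adjustment over all genes. Correlations and figures used Python 3.11.15, numpy 2.4.6, scipy 1.17.1 and matplotlib 3.10.9. Marker lists were averaged after centring each gene over the arrays.

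Members and lists were chosen with earlier results of these data known. All 10 members are named. Of each other list, up to 4 genes that passed a comparison with PBS are named by smallest p, otherwise up to 2, of which the text gives some. Genes of these lists that passed between Ex-4 and Fgf7 are named too. Labels do not say whether replicates are separate animals, so a p-value here measures only how these samples spread. Replicate numbers are shared across groups: of 30 same-numbered pairs, r of their deviations was -0.18 to 0.65 (median 0.18), 22 were over 0.1, and every pair was over 0.1 in 2 of 9 comparisons between agents (Fgf7 against PBS at 1 h and 20 h). The numbers come from the sample titles. Alternatives covered the filter on dim probes, all probes as separate entries, background subtraction with an offset of 50, the variance model, array weights, a smooth muscle covariate, leaving out the 4 arrays of high smooth muscle signal (above 0.5), fitting only the groups compared, the replicate block and leaving out each array.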

Additional observations from a re-analysis of the deposited data

Results flagged for a closer look

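Spink4 had 1 array far from the others of its group: in Fgf7 mice at 5 h replicate 4 was at 12.69, against 13.54 to 13.65 in the other 3 arrays, a gap that made up 0.882 of the range of the group. It was 1 array among 30 sets of 4 arrays examined for the 10 genes, and chance gives about 1 in 20. The effect of Ex-4 on Gcnt3 differed between times: the difference from PBS changed by -1.12 on the log2 scale at 20 h relative to 5 h, by the interaction test reported above.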

How the results depend on the processing

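Of 418 counts of passing members, 372 were unchanged or within 1.5 times, and 4125 of 4180 member values stayed on the same side of the threshold. No member passed with the other sign, and 205 values that passed in neither fit changed sign. Fitting only the groups compared gave 0 passing members for Ex-4 against PBS at 5 h and at 20 h, for Ex-4 against Fgf7 at 20 h and for the Ex-4 change from 5 h to 20 h (1 each in the fit of all arrays); this setting has fewer arrays, and was not run for the F-tests. With the arrays rich in smooth muscle markers left out, Ex-4 against PBS at 20 h gave 0 (Clca1 at 0.0514) and the F-test against PBS 1. The F-test against PBS gave 1, without Gcnt3, also with no filter on dim probes and with the variance trend and robust fit, and 1 to 2 without 1 array. The stricter filter gave 1 for Ex-4 against Fgf7 at 5 h (Gcnt3). Without 1 array the counts were 0 to 1 for Ex-4 against PBS at 5 h and 20 h, Fgf7 against PBS at 20 h, Ex-4 against Fgf7 at 5 h and the Ex-4 change from 1 h to 20 h, 1 to 2 for Ex-4 against Fgf7 at 20 h and 0 to 2 for the Ex-4 change from 5 h to 20 h. Apart from the causes named, the cause was not tested.

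With the replicate block, 1 member passed for Fgf7 against PBS at 20 h (Muc2), 1 for Ex-4 against Fgf7 at 5 h (Gcnt3, adjusted p = 0.0372), 2 for Ex-4 against Fgf7 at 20 h (Muc2 and Spdef, 0.0369) and 6 in the F-test of 9 groups, which added Tff3 (0.0191), Spdef (0.0468) and Clca1 (0.0461). The F-test against PBS then gave 3, with Spdef added (0.048, against 0.197 without the block). Over the 9 comparisons between agents at one time, an array correlated best with its own number in the other group in 20 of 30 matches. Ex-4 arrays enter these matches more than once, and each match had only 3 or 4 candidates. This is a hint from the data and not from the design. The block changed no other call of the pairs whose numbers deviate together. Dim signals limit what can be said of Agr2, Spdef and Fcgbp, whose folds are understated.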
